A study of Homo sapiens with 6 samples.

Results

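Secreted and extracellular proteins are represented here by 62 genes of the 1099 in the authors' deposited table. A gene was taken where its annotation held the GO term extracellular region or extracellular space (115 genes). Genes annotated to the lysosome or to RNA binding (28) were then left out, as were 25 more by name, among them S100, keratin and proteasome genes and the chemokine CXCL8. The rule uses annotation and gene names and no measured value, but it and its exclusions by name were set with earlier results of these data known. The table had itself been chosen on the comparison below, as it holds the 9.74% of the 11289 genes the authors tested that ranked first by p-value. Poly(A) RNA was sequenced from wild-type (WT) human cells that the labels call A549, a lung cancer line, grown in RPMI-1640 with serum. They received DMSO as vehicle or F/B extract, made from Flos Sophorae Immaturus and broccoli seed according to the series title, for 24 h, with 3 libraries in each group. The dose is not stated in the sources used here. Nothing in the labels tells whether the replicates were separate cultures, so a p-value here reflects the spread between libraries alone, which may be technical.

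The library names and column headers call the cells AGS, the name of a gastric line, and not A549. Of 10 lung alveolar marker genes 0 were in the table, against 4 of 18 gastrointestinal ones, all called lower with extract, among them VIL1 (villin) at 201 TPM in vehicle. TPM is a level corrected for transcript length and library size. Of 12 leukocyte markers 0 were listed, and of 12 fibroblast and endothelial markers 1 was, COL1A1 at 14.2 TPM in vehicle and 12.3 TPM with extract. The absence of a gene from a table selected by p-value says nothing of its level. Estimated counts over the listed genes summed to between 3084338 and 4640117 per library, of which the 62 genes held 7.28% to 7.89%.

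Secreted proteins carry signals between cells, build the extracellular matrix and act in complement and coagulation. Most enter the endoplasmic reticulum (ER) through a signal peptide, pass the Golgi and leave by vesicles, while a few, such as galectins and interleukin-18, leave cells by other routes. The annotation is wider than that, since 19 of the 62 genes encode proteins that mainly act inside cells, such as the actins. In the annotation 22 of the 62 also carried nucleus, cytosol or mitochondrion, and 29 carried extracellular exosome. The genes are described below by the role of their protein, a grouping made by hand after their values were seen.

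With extract, 22 of the 62 genes were called higher and 34 lower, and 6 did not pass. A call is an adjusted p under 0.05 by edgeR's quasi-likelihood test. In the authors' deposited comparison, by DESeq2 according to the table's name, all of these 6 except ATRN had an adjusted p under 0.05. No listed gene exceeded 0.0549 there. Among all listed genes 81.8% were called, 28.9% higher and 52.9% lower, so a high share of calls belongs to the table as a whole. The median log2 fold change (extract over vehicle) was -0.23 over the 62 genes and -0.22 over all 1099, and the median size without its sign was 0.29 in both. In normalised counts the libraries of the 2 groups did not overlap in any of the 62 genes, 24 higher and 38 lower. Likewise they did not in 98.5% of all listed genes, 34.6% higher and 63.9% lower. The scale of these counts was solved from the authors' own fold changes. In TPM the groups overlapped in IGF1, HHLA1, PRSS3, TNFRSF1B, TGFA, JAG1, CAB39, HSPH1 and DPYSL3. Overlap in TPM was not counted over all listed genes. Most changes were small. At least 1.5-fold lower were 7 genes, LGALS7B, IGF1, C4BPB, HRNR, GPRC5B, IL32 and HHLA1, and 1 gene, APOL6, was at least 1.5-fold higher.

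**Figure D1:**
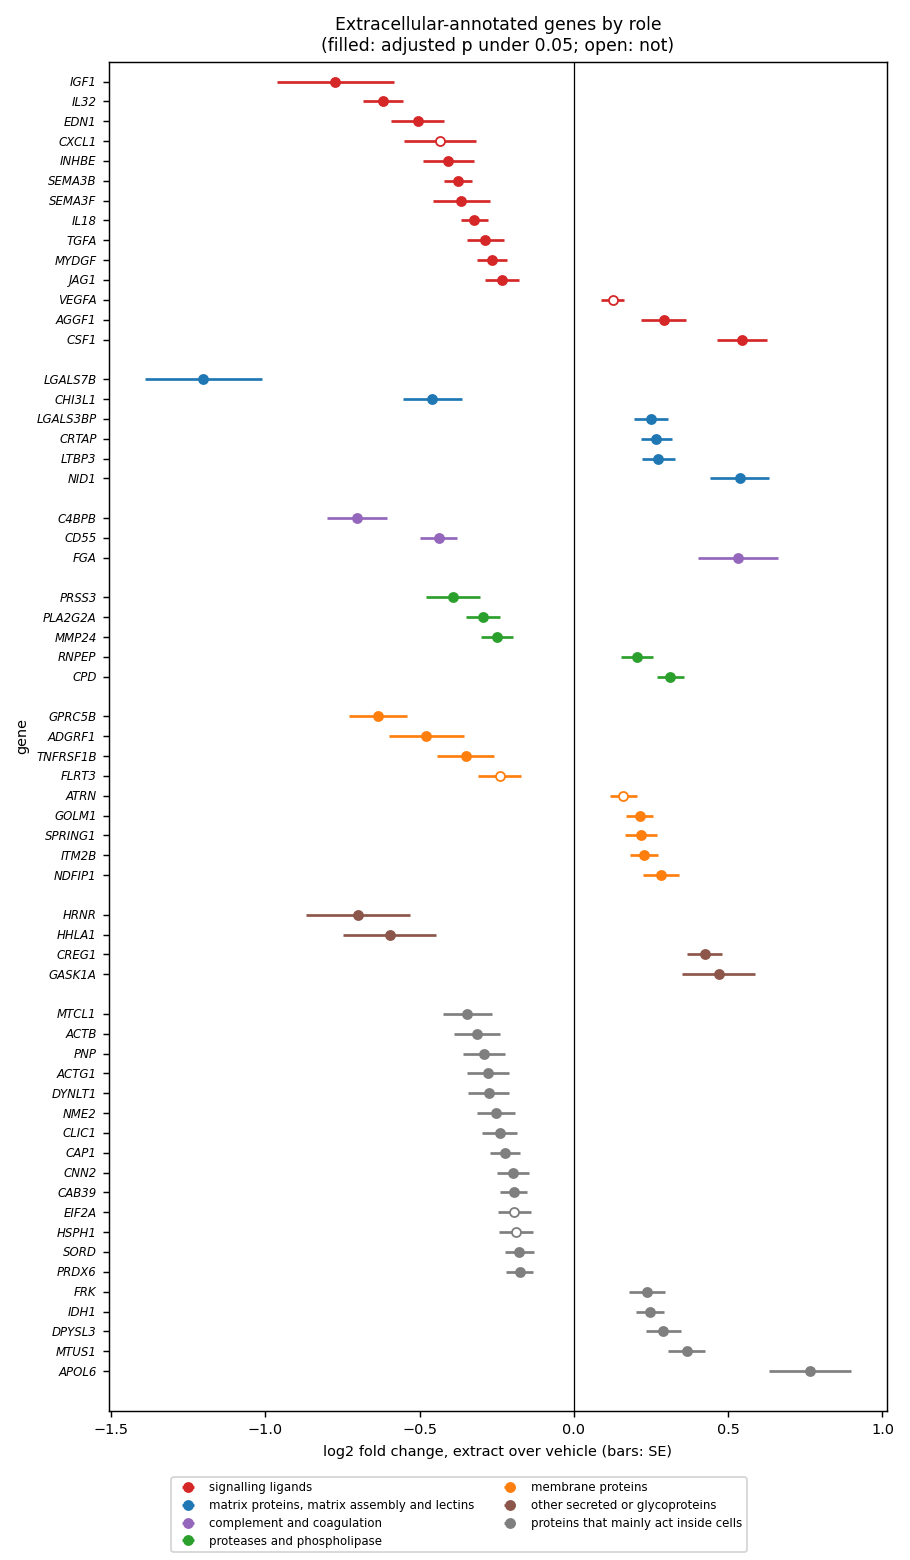
Log2 fold change, extract over vehicle (x axis), with its SE (bars) for the genes reported by name (y axis), grouped and coloured by role, filled where the adjusted p was under 0.05. Of the 14 signalling ligands 11 lie left of 0. In the matrix group NID1, LTBP3, CRTAP and LGALS3BP lie right of 0, and LGALS7B and CHI3L1 left of it.

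The promoters of IL32 and CXCL1, inflammatory ligands that were both lower, are shown because each window holds a match to the NF-kB consensus, and that of NID1, a matrix gene that rose, because it holds one too. LGALS7B, the gene with the largest decrease, is shown for its AP-1 match. Each runs 5′ to 3′ from 250 bases before to 50 after the RefSeq transcription start (GRCh38.p14). Capitals mark the NF-kB matches in IL32, CXCL1 and NID1, which overlap on both strands in the first 2, the CRE match (TGACGTCA) in IL32, and the AP-1 match (TGANTCA) in LGALS7B.
IL32 (chr16:3065153-3065452, plus strand): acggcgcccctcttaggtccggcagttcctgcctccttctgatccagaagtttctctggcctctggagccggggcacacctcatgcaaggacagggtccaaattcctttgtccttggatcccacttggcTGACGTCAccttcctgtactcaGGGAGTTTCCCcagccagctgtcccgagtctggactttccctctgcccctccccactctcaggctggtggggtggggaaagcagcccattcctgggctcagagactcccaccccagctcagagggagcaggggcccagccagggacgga
CXCL1 (chr4:73869143-73869442, plus strand): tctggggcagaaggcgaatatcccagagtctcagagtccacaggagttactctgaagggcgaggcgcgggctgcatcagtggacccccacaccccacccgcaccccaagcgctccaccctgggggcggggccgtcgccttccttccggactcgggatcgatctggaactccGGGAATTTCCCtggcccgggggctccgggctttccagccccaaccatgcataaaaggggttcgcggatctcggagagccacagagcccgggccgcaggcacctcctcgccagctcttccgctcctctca
NID1 (chr1:236065041-236065340, minus strand): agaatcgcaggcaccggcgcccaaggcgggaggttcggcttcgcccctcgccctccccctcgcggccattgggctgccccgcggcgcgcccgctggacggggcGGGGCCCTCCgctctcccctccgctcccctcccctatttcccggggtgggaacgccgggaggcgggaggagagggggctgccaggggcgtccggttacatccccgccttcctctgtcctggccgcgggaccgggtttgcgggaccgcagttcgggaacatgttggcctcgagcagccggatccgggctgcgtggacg
LGALS7B (chr19:38788950-38789249, plus strand): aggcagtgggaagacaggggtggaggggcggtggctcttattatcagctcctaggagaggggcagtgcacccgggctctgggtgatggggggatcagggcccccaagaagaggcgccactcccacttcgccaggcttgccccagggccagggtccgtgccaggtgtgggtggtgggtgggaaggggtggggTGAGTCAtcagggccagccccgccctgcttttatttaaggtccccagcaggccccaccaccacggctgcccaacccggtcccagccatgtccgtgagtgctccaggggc
The NF-kB matches begin at position -99 from the start in IL32, at -79 in CXCL1 and at -147 in NID1, and the AP-1 match at -59 in LGALS7B. A promoter in the RefSeq table was found for 49 of the 62 genes. In these, 9 motifs were searched, on both strands except for the TATA box, which was searched on the gene's own strand. The NF-kB consensus occurred in 3 of 32 promoters of lower genes and in 4 of 17 of higher genes, against 10.8% of all 27305 promoters of this length. The AP-1 motif occurred in 3 of 32 and 0 of 17, against 7.76% of all, and CRE in 1 of 32 and 0 of 17, against 1.98%. A match describes letters only, and the factors were not measured.

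Of 14 signalling ligands 10 were called lower and 2 higher, against 52.9% and 28.9% of all listed genes. Their median log2 fold change was -0.34, against -0.22 over all listed genes. On each of the 4 other library scales tried 3 of the 14 were called higher, and 2 (TMM), 3 (DESeq2 size factors), 3 (plain sums) and 4 (TPM) were called lower. Among all listed genes 33.8% to 35.2% were called higher and 7.83% to 19.5% lower on these scales. IL32, an inflammatory cytokine (ENSG00000008517, GRCh38 chromosome 16, 3065297 to 3082192), had the smallest p-value of the 62 genes. It stood at 1039.9, 1031 and 926 normalised counts in vehicle replicates 1 to 3 and at 622, 673 and 657 in extract replicates 1 to 3. All extract libraries lay well below all vehicle libraries, with means of 999 ± 63.2 and 651 ± 26.2 (SD, n = 3 each). The log2 fold change was -0.62 (SE 0.07, adjusted p = 0.00155 by edgeR).

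CXCL1, a neutrophil-attracting chemokine, was lower in every extract library and narrowly missed the threshold. Its normalised counts were 299, 297 and 365 with vehicle and 242, 211 and 259 with extract, a difference of -0.43 on the log2 scale (SE 0.12, adjusted p = 0.0527 by edgeR). IL18, a cytokine of the interleukin-1 family, was the most abundant of these inflammatory ligands, at 340.1 ± 11.9 TPM with vehicle and 290.1 ± 11.9 TPM with extract (SD, n = 3 each). Its normalised counts went from 3693, 3561 and 3478 to 2812, 2941 and 2831, and its log2 fold change was -0.32 (SE 0.04, adjusted p = 0.00389 by edgeR). The extract libraries were close together, well below the vehicle ones.

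CSF1, the growth factor of macrophages, went the other way. It stood at 319, 316 and 322 normalised counts with vehicle and at 496, 426 and 475 with extract, a log2 fold change of 0.54 (SE 0.08, adjusted p = 0.00548 by edgeR). The vehicle libraries were nearly equal and every extract library lay above them. Of the 4 cytokines and chemokines among the 62 genes 2 were thus called lower, 1 higher, and CXCL1 did not pass. Over all listed genes 52.9% were called lower and 28.9% higher. The annotation cytokine activity also takes in EDN1, INHBE and VEGFA but not CXCL1. Of 6 genes with it among the 62, 4 were called lower and 1 higher.

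Vasoactive, growth and guidance factors made up most of the other lower ligands. EDN1, the vasoconstrictor endothelin-1 (chromosome 6, 12290363 to 12297194), went from 646, 697 and 789 to 502, 468 and 532 normalised counts. Its log2 fold change was -0.51 (SE 0.09, adjusted p = 0.00926 by edgeR), and the highest extract library lay below the lowest vehicle one. INHBE, the inhibin beta E subunit of the TGF-beta family, moved from 2271 ± 235 to 1715 ± 148 counts after scaling (SD, n = 3 each), for a log2 difference of -0.41 (edgeR adjusted p = 0.0184). TGFA, an EGF receptor ligand, stood at -0.29, JAG1, a Notch ligand, at -0.23, and the growth factor MYDGF at -0.27. These 3 and INHBE passed the test here and on none of the 4 other scales.

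The class 3 semaphorins SEMA3B and SEMA3F, secreted guidance cues whose genes lie 78.5 kb apart on chromosome 3, were both lower. SEMA3B (50267558 to 50277546) had 2401, 2485 and 2428 normalised counts with vehicle and 1944, 1894 and 1801 with extract. The spread within each group was small beside the gap, and the log2 fold change was -0.38 (SE 0.05, adjusted p = 0.00261 by edgeR). SEMA3F (50155045 to 50189075) was expressed at a lower level, 11.3 TPM in vehicle against 74.2 TPM for SEMA3B. Its normalised counts went from 382, 419 and 446 to 351, 313 and 306, a log2 fold change of -0.36 (SE 0.09, adjusted p = 0.0383 by edgeR). The call of SEMA3F was lost on each of the 4 other scales and that of SEMA3B on none.

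Besides CSF1, the ligands VEGFA and AGGF1 were higher in every extract library. VEGFA, the main endothelial growth factor, stood at 6685, 6411 and 6559.6 normalised counts with vehicle and at 7202, 7126 and 7119.8 with extract. The groups were apart but the difference was small, 0.13 on the log2 scale (SE 0.04, adjusted p = 0.0846 by edgeR). VEGFA passed on all 4 other scales, as did every higher gene of the 62. AGGF1, an angiogenic factor, was called higher at 0.29 (SE 0.07, adjusted p = 0.0381 by edgeR), from 886 ± 45.4 to 1082 ± 97.6 counts after scaling (SD, n = 3 each).

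IGF1, insulin-like growth factor 1, had the largest decrease in counts among the ligands and the largest gap between counts and TPM. It was singled out after its values were seen. Its normalised counts were 100, 119.9 and 121 with vehicle and 60.9, 53.2 and 86.6 with extract, a log2 fold change of -0.77 (SE 0.19, adjusted p = 0.0349 by edgeR). Its TPM values were 2.93, 3.59 and 5.08 with vehicle and 2.49, 2.87 and 6.29 with extract, so on that scale the groups overlapped, with means of 3.87 and 3.88 TPM. The call was lost on each of the 4 other scales. Over the 62 genes the log2 ratio of mean TPM lay above the log2 fold change from counts by a median of 0.08, and 59 of the genes were within 0.1 of that median. CSF1 was another exception, with a log2 ratio of TPM of 0.83 against 0.54 from counts.

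**Figure D2:**
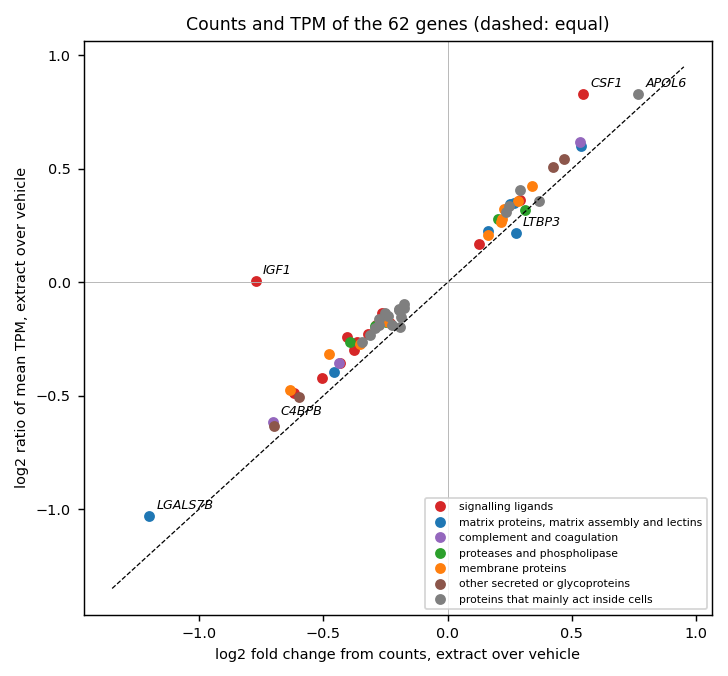
Log2 fold change from normalised counts (x axis) against the log2 ratio of mean TPM (y axis), extract over vehicle, for the 62 genes, coloured by role, with a dashed line where both are equal. Most points lie slightly above the line, while IGF1 stands at -0.77 from counts and near 0 from TPM.

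Of 7 genes of matrix proteins, matrix assembly and lectins, 5 were called higher and 2 lower, against 28.9% and 52.9% of all listed genes. NID1, nidogen-1, which links laminin to collagen IV in basement membranes (chromosome 1, 235975830 to 236065162), had the largest increase of the 7. It went from 274, 228 and 269 to 387, 372 and 354 normalised counts, a log2 fold change of 0.54 (SE 0.10, adjusted p = 0.0111 by edgeR). The lowest extract library exceeded the highest vehicle one, in a gene at 3.68 TPM in vehicle.

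LTBP3, which binds latent TGF-beta in the matrix, was at 0.27, from 917 ± 37 to 1109 ± 32 counts after scaling (SD, n = 3 each). CRTAP, which acts in collagen prolyl 3-hydroxylation in the ER, was also at 0.27, and LGALS3BP, a secreted galectin ligand, at 0.25. LTBP3, CRTAP, LGALS3BP and NID1 were called on all 4 other scales, as was every higher gene of the 62. None of these matrix genes was called without vehicle replicate 2.

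LGALS7B, galectin-7, a lectin of stratified epithelia without a signal peptide, had the largest decrease of the 62 genes (chromosome 19, 38789211 to 38791749). It had 95.8, 100.5 and 100.4 normalised counts with vehicle and 35.9, 36.5 and 56.7 with extract. Extract replicate 3 stood above the other two extract libraries and still far below vehicle. The log2 fold change was -1.20 (SE 0.19, adjusted p = 0.00706 by edgeR), or 2.3-fold lower. LGALS7 is a near-identical copy, so how reads were split between the copies is uncertain. CHI3L1, a chitinase-like lectin, went from 270.3, 264 and 249.7 to 203, 188 and 179.7 normalised counts, a log2 fold change of -0.46 (SE 0.09, adjusted p = 0.019 by edgeR).

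Both listed complement regulators fell, and a fibrinogen chain rose. C4BPB, the beta chain of C4b-binding protein, and CD55, the decay-accelerating factor that protects cells from complement, lie 221 kb apart on chromosome 1. C4BPB (207088842 to 207099993) stood at 1879.6, 1755 and 1744 normalised counts with vehicle and at 1234, 1166 and 903 with extract. Extract replicate 3 was the lowest, and the log2 fold change was -0.70 (SE 0.10, adjusted p = 0.00431 by edgeR), or 1.63-fold lower. CD55 (207321376 to 207386804) was the most abundant of the 43 genes outside the intracellular proteins, at 660.3 ± 18.1 TPM with vehicle and 516 ± 14.6 TPM with extract. Its normalised counts went from 13820.5, 13810.1 and 14448 to 11134, 10486 and 9427, a log2 fold change of -0.44 (SE 0.06, adjusted p = 0.00417 by edgeR). Both regulators were lower in every extract library.

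FGA, the fibrinogen alpha chain (chromosome 4, 154583126 to 154590766), had 289.5, 304 and 288 normalised counts with vehicle and 510.0, 423 and 343 with extract. The extract libraries were spread widely, each above vehicle, and the log2 fold change was 0.53 (SE 0.13, adjusted p = 0.0351 by edgeR). FGA was called when extract replicate 3 was left out, and lost its call without any 1 of the other libraries, with log2 fold changes that stayed above 0.

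**Figure D3:**
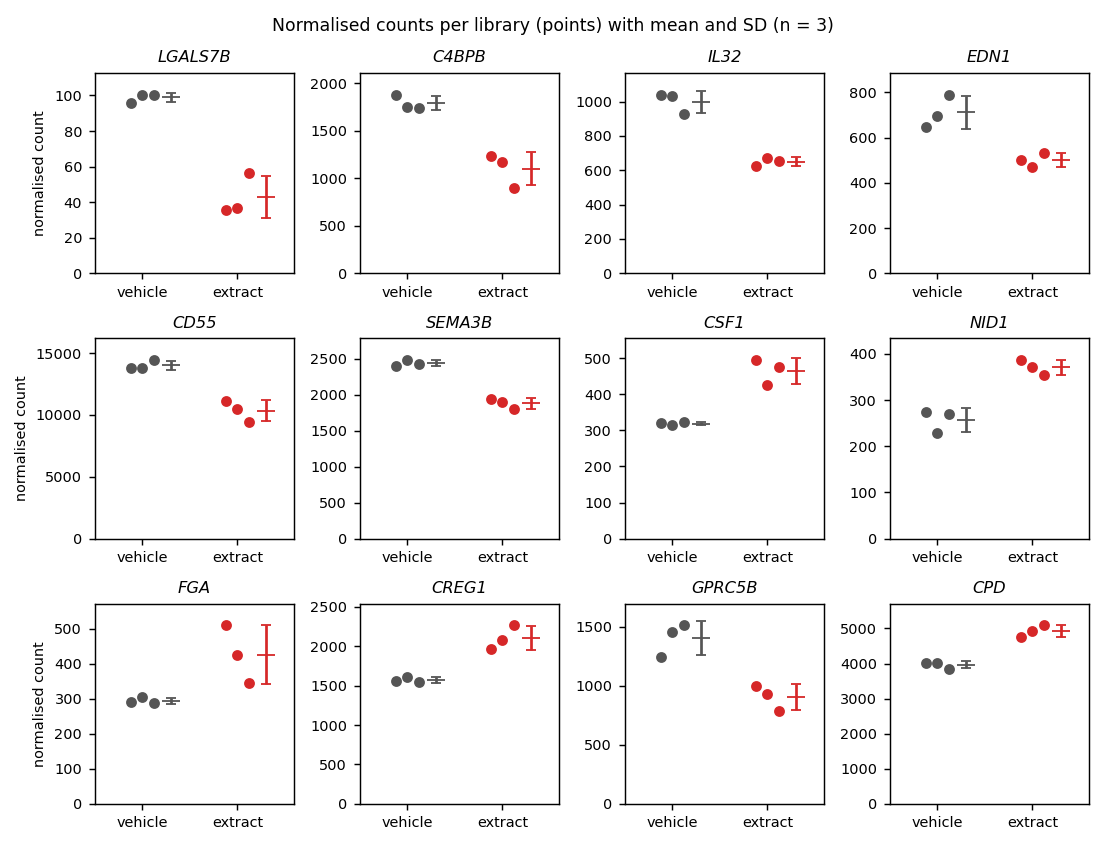
Normalised counts per library (y axis, starting at 0) in vehicle and extract for 12 genes, with points for libraries and bars beside them for the mean and SD (n = 3). The groups do not overlap in any panel, and in FGA the extract libraries reach from 343 to 510.0.

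Listed proteases and the phospholipase were split, 2 called higher and 3 lower, against 28.9% and 52.9% of all listed genes. PRSS3, mesotrypsin, whose sequence is close to that of other trypsinogen genes, moved from 642 ± 68.2 to 491 ± 27.3 counts after scaling (SD, n = 3 each), for a log2 difference of -0.39 (edgeR adjusted p = 0.0257). PLA2G2A, a secreted phospholipase A2, went from 3194, 3083 and 3069 to 2746, 2492 and 2384 normalised counts, or -0.29 (SE 0.06, adjusted p = 0.0136 by edgeR). MMP24, a membrane-bound matrix metalloproteinase, stood at -0.25. Of these 3, PLA2G2A also passed on the TPM scale, and the other two on none of the 4 scales.

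CPD, carboxypeptidase D, which trims proteins in the trans-Golgi, went from 4021, 4016 and 3844 to 4746, 4916 and 5096 normalised counts. Its log2 fold change was 0.31 (SE 0.04, adjusted p = 0.00426 by edgeR), and no library of one group reached the other. The aminopeptidase RNPEP was at 0.20 (edgeR adjusted p = 0.0394). Both passed on all 4 other scales, as did every higher gene of the 62.

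Of 10 membrane proteins 5 were called higher and 3 lower, against 28.9% and 52.9% of all listed genes. NDFIP1, an adaptor of Nedd4 family ubiquitin ligases, went from 1562, 1464 and 1387 to 1774, 1713 and 1876 normalised counts, or 0.28 (SE 0.06, adjusted p = 0.0184 by edgeR). Every extract library lay above every vehicle library. ITM2B was at 0.23, SPRING1, a factor of the SREBP pathway, at 0.22, and the Golgi protein GOLM1 at 0.21. ATRN, attractin, at 0.16, and the adhesion protein FLRT3, at -0.24, missed the threshold (edgeR adjusted p = 0.0568 and 0.07).

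The 3 membrane proteins called lower are receptors. GPRC5B, an orphan G protein-coupled receptor, went from 1245, 1453 and 1513 to 997, 932 and 786 normalised counts. Its log2 fold change was -0.64 (SE 0.10, adjusted p = 0.00559 by edgeR), with every extract library under every vehicle library. ADGRF1, an adhesion receptor, went from 234 ± 11.1 to 167 ± 25.7 normalised counts, or -0.48, and TNFRSF1B, a receptor of tumour necrosis factor, from 640.2 ± 52 to 502 ± 52, or -0.35 (SD, n = 3 each). Both passed here (edgeR adjusted p = 0.0413 and 0.0445) and on none of the 4 other scales.

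CREG1, a secreted glycoprotein (chromosome 1, 167529117 to 167553805), stood at 1553, 1615 and 1540.2 normalised counts with vehicle and 1964, 2084 and 2269.5 with extract. The log2 fold change was 0.42 (SE 0.06, adjusted p = 0.00417 by edgeR), and all extract libraries lay above all vehicle ones. GASK1A, a Golgi-associated kinase-like protein, was at 0.47 (SE 0.12, adjusted p = 0.0385 by edgeR). HHLA1 went from 850.4, 1139 and 1246 to 588, 706 and 850.3 normalised counts, or -0.60 (SE 0.15, adjusted p = 0.0403 by edgeR), with vehicle replicate 1 and extract replicate 3 practically equal. HRNR, hornerin, a protein of the cornified epidermis, was at -0.70 (SE 0.17, adjusted p = 0.0341 by edgeR) in a gene at 4.24 TPM in vehicle.

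Among the 19 proteins that mainly act inside cells 12 were called lower and 5 higher, with a median of -0.20. Over all listed genes 52.9% were called lower and 28.9% higher, with a median of -0.22. The actins had the highest levels of the 62 genes. ACTB, beta-actin, had 4987 ± 258 TPM with vehicle and 4239 ± 126 TPM with extract, and ACTG1, gamma-actin, 2069.8 ± 73.6 and 1814 ± 107 TPM (SD, n = 3 each). Their log2 fold changes from counts were -0.31 (SE 0.07) and -0.28 (SE 0.07). Actin-binding CAP1 at -0.22 and CNN2 at -0.20 were called lower too, as were the chloride channel protein CLIC1 at -0.24 and NME2, a nucleoside diphosphate kinase, at -0.25. The other 8 lower genes lay between -0.34 (MTCL1, a microtubule-binding protein) and -0.18 (PRDX6, a peroxiredoxin), and of these EIF2A, a translation factor, and HSPH1, a chaperone, missed the threshold (edgeR adjusted p = 0.0562 and 0.0727). NME2 overlaps a readthrough transcript with NME1 and the actins have closely related copies, so their counts are uncertain to that extent.

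The gene with the largest increase of the 62 was APOL6, an apolipoprotein L family member, at 0.77 (SE 0.13, adjusted p = 0.0101 by edgeR). It had the lowest level, 0.61 TPM in vehicle, with 84.1, 68.9 and 74.6 normalised counts against 127, 124 and 134 with extract. MTUS1, a microtubule-associated protein, was at 0.37, DPYSL3 at 0.29, the NADP-dependent isocitrate dehydrogenase IDH1 at 0.25 and the kinase FRK at 0.24. The 14 lower genes of this role gave 0 lower calls with the TMM, DESeq2 and plain-sum scales over the listed genes, and 1 on the TPM scale, ACTB.

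Summed over the 62 genes, TPM was 15120 to 15781 per vehicle library and 13839 to 14252 per extract library. Without ACTB and ACTG1 it was 8443 to 8525 and 7988 to 8058. The groups did not overlap in either sum. The higher genes had lower levels than the lower genes, with a median TPM in vehicle of 34.5 against 73.3, and so did those of the whole table (24.2 against 91.6). Among the 62, 4 of 5 genes annotated to the ER lumen and 5 of 7 annotated to the Golgi were higher, as were 16 of 25 and 34 of 58 among all listed genes. Of 16 annotated to neutrophil degranulation 13 were lower, against 27 of 50 among all listed genes, which include the 16. The 62 leave out genes annotated to the lysosome, so the sets differ by rule. What that does to these shares was not tested.

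The machinery that moves proteins into and out of the ER was thinly listed. Of 81 genes of this machinery 9 were in the table, 8 called lower and 0 higher, against 52.9% and 28.9% of all listed genes. SSR3, a translocon-associated protein, was at -0.32 (SE 0.06, edgeR adjusted p = 0.0149), the signal recognition particle genes SRP19 and SRP72 at -0.24 and -0.18, and the coat protein genes SEC24A, SEC13 and SEC23B at -0.23, -0.20 and -0.17. HSP90B1, an ER chaperone, stood at 0.13 and did not pass. On each of the 4 other scales the list gave 0 lower calls and 1 higher call, HSP90B1, and with DESeq2 size factors 1 of the 8 also lay above 0. Without vehicle replicate 2, 0 of the 9 were called in either direction.

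Wider lists of secreted genes had few listed members, the 62 and others together. Of all genes the authors tested 9.74% were listed, though the lists may also hold genes that were not tested. Of all listed genes 28.9% were called higher and 52.9% lower. Of 168 growth factors and morphogens 13 were listed, 2 called higher and 10 lower. The 2 were LTBP3 and CAT, catalase, an antioxidant enzyme that is no growth factor. Of 80 cytokines, chemokines and their regulators 5 were listed, 1 called higher and 2 lower. Of 140 matrix proteins 8 were listed, 3 called higher and 3 lower, and of 83 complement, coagulation and defence genes 4 were, 1 and 3. Of 156 secreted proteases and enzymes 16 were listed, 7 and 5, of 71 carriers and binding proteins 8, 6 and 1, and of 133 surface receptors and adhesion proteins 4, 1 and 3. Of 63 protease inhibitors 1 was listed, APLP2 at 0.14, and it did not pass.

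The number of lower calls depended on how the libraries were scaled, more than that of higher calls. TMM, DESeq2 size factors and plain sums were computed from the listed genes alone, of which 64.8% were lower. Such scales move a mostly lower list towards 0, so a loss of lower calls is built into them. They cannot tell whether the decreases are less secure than the increases. With the TMM scale over the listed genes 24 of the 62 were called higher and 6 lower, against 42.9% called among all listed genes, 35% higher and 7.92% lower. The 6 were C4BPB, CD55, GPRC5B, IL32, LGALS7B and SEMA3B. With DESeq2 size factors from the listed genes EDN1 joined them, for 24 and 7, against 43% (35.2% and 7.83%). Plain sums gave the same 24 and 7, against 46.6% (35.1% and 11.5%). The scale implied by TPM gave 24 and 11, against 53.2% (33.8% and 19.5%), the lower genes being those 7 with ACTB, HRNR, IL18 and PLA2G2A. None of the 62 genes changed direction on any of these scales.

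Single libraries mattered as well. Without vehicle replicate 2, 4 genes were called higher (CPD, CREG1 and CSF1 among them) and 6 lower (C4BPB, CD55, GPRC5B, IL18, IL32 and SEMA3B), with 16.2% called among all listed genes (4.55% and 11.6%). The counts were largest without extract replicate 1, 19 and 29, with 78% called (26.1% and 51.9%). Called shares of all listed genes were 64.5% and 27.7% without vehicle replicates 1 and 3, and 23% and 63.1% without extract replicates 2 and 3. They were 96.5% with DESeq2, 82.6% with limma-voom, 100% with adjustment over the listed genes only, and 29.3% (8.19% and 21.1%) when replicate numbers entered as a block. In all, 9 genes were called in each of 13 other settings, namely the 4 scales, 6 left-out libraries, the block, DESeq2 and limma-voom. Among them were CSF1, CREG1 and CPD, higher, and SEMA3B, CD55, IL32, GPRC5B and C4BPB, lower. How many of all listed genes were called in each of the 13 settings was not counted. Whether 9 is a high or a low number beside the table as a whole was therefore not tested.

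**Figure D4:**
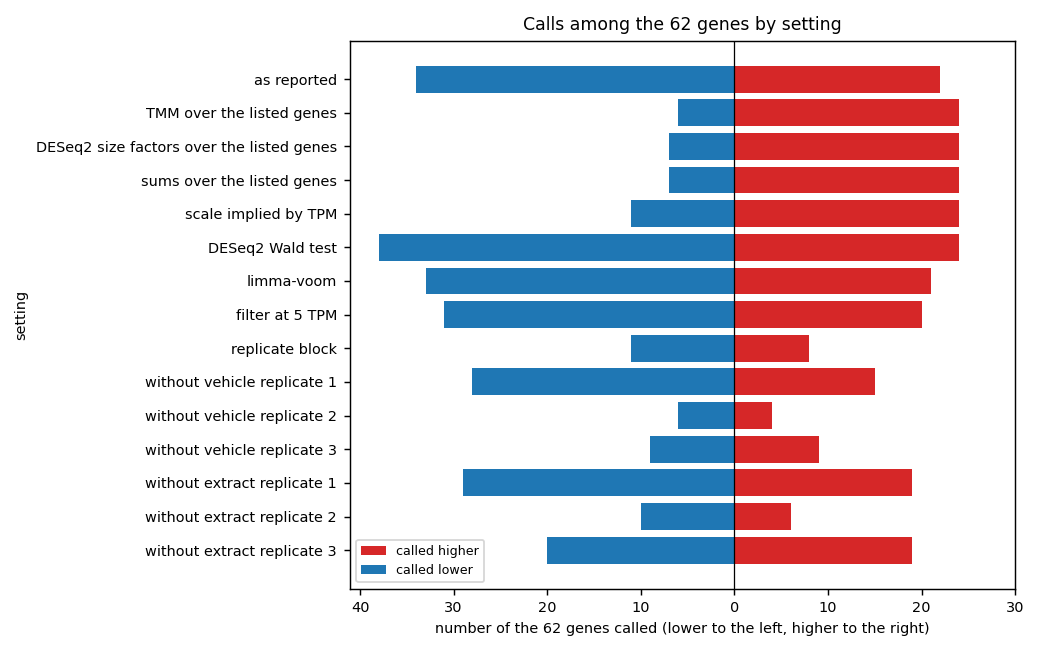
Number of the 62 genes called higher (bars to the right) and lower (bars to the left) with extract under each setting (y axis). Lower calls drop from 34 to between 6 and 11 on the 4 other scales, and both directions drop without vehicle replicate 2, to 4 and 6.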

How the data were processed

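The 62 genes and all gene lists were chosen with earlier results of these data known. The authors deposited estimated counts and TPM per library and, per the file headers, a fold change (a ratio), its log2 value and, for each gene, a raw and an adjusted p-value, from DESeq2 according to the table's name. The deposited log2 values are vehicle over extract. Per the submitters' processing notes the build was GRCh38.p13. Aligner and counter: not given in the sources used here. That 11289 genes were tested was derived from the deposited p-values and adjusted p-values.

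Estimated counts, of which 31.8% to 35.9% were not whole, were rounded. Size factors were solved from the deposited fold changes (0.940, 1.23 and 1.05 for vehicle and 0.920, 0.959 and 0.935 for extract replicates 1 to 3), with a largest log2 difference of 0.00135. Normalised counts are counts divided by them. Genes were tested with edgeR 4.0.16 (R 4.3.3) without covariates, and p-values adjusted over 11289 genes. The low-count filter removed 0 genes. The spread was estimated on genes selected for small p-values, so p-values may be too small. SE was taken from the log2 fold change and the F statistic. Alternatives used TMM, DESeq2 1.42.0, limma 3.58.1, plain sums, the TPM scale, other filters, adjustment over the table alone, narrower annotation, the replicate block and left-out libraries. Tested on simulated data of 1099 genes for this comparison, the fit recovered 60% of genes changed 1.2-fold and 100% of those changed 1.5-fold. The simulation adjusted p-values over 1099 genes and not 11289. It had known library scales, the same spread setting for all genes, most genes unchanged and changes in random direction. Its recovery shares therefore do not carry over to the reported test.

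Genes were named by rule: the 14 lowest and 14 highest log2 fold changes among called genes without overlap and with at least 5 TPM, up to 4 per list by p-value, and the 3 most abundant. Others were named after their values were seen. Gene coordinates are from GENCODE 29 (GRCh38), promoters from RefSeq. Some genes among the 62 are counted but not reported here by name.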

Additional observations from a re-analysis of the deposited data

How the results depend on the processing

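No gene among the 62 changed direction in the edgeR, DESeq2 or limma-voom settings. Against 22 called higher and 34 lower, the lower calls were 6 with TMM, 7 with DESeq2 size factors, 7 with sums over the listed genes and 11 on the TPM scale, where the higher calls were 24 each. These scales raise the median log2 fold change of all listed genes by 0.15, 0.17, 0.14 and 0.08, so each decrease is smaller by about that much. Leaving out 1 library gave 4 to 19 genes called higher and 6 to 29 lower, with the lowest values without vehicle replicate 2. Fewer libraries give the test less power. DESeq2 called all 62 genes, and so did an adjustment over only the listed genes, which were selected on small p-values. The replicate number as a block gave 8 higher and 11 lower. Same-numbered libraries did not deviate together (Pearson r across genes -0.23, -0.01 and -0.03 for numbers 1 to 3), and no library correlated best with its own number. With 3 libraries per group and genes selected on small p-values, this cannot tell whether same-numbered libraries shared a culture or batch. With the GO term extracellular space alone 12 of 38 genes were called higher and 22 lower, against 19 and 39 of all 70 listed genes with it. With extracellular region alone 16 of 40 were called higher and 21 lower, against 30 and 41 of all 83. Without genes also annotated to nucleus, cytosol or mitochondrion 17 of 40 were called higher and 19 lower. Over all listed genes 28.9% were called higher and 52.9% lower. These 3 settings take fewer genes. With pseudocounts of 1 and 0.1 the log2 ratio of TPM kept the direction of the 37 genes that the naming rule selects. IGF1, outside that rule, has a log2 ratio of mean TPM of 0.01 against -0.77 from counts. Total depth is not given in the sources used here.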

Other observations

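The libraries did not contribute evenly to the differences. Extract replicate 3 lay farthest from the vehicle mean in 34 of the 62 genes, among them 23 of the 38 lower ones, against 15 and 13 genes for extract replicates 1 and 2. In C4BPB, CD55 and GPRC5B it was the lowest extract library, whereas in LGALS7B and HHLA1 it was the highest. Vehicle replicate 3 lay farthest from the extract mean in 30 genes. The chi-square per degree of freedom of the counts was 15.3 between extract replicates 1 and 3 and 4.59 to 8.68 for the other pairs within a group.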
